A study of Mus musculus with 2 samples.

Results

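Unusually wide open regions of the mouse frontal cortex were chosen by the measured width of DNase-seq peaks. A peak of 600 bp or more in one library was kept when it overlapped any peak of the other library by at least 1 bp, and the kept peaks of both libraries were merged. The rule gave 1400 wide regions, of 109538 merged regions in all and of 58659 regions called in both libraries. Merging all peaks joined some wide regions, so the 1400 lay in 1392 of these shared regions, and the 57267 without a wide region are named other shared regions here. DNase-seq maps open chromatin by the sites where the enzyme DNase I cuts DNA in nuclei. Frontal cortex came from B6CASTF1/J females of 25 days, an F1 hybrid of the C57BL/6J and CAST/EiJ strains with no treatment named. There were 2 libraries in 1 group, replicates 1 and 2 of the labels, each from a biosample of its own under a shared donor entry. Whether these were different mice or pools is not given in the sources used here.

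Open chromatin is chromatin in which nucleosomes are displaced or loose, so that enzymes and transcription factors reach the DNA. At most promoters and enhancers the opening is about as long as the gap left by a displaced nucleosome, with the bound factors inside it. Many vertebrate promoters lie in CpG islands, stretches rich in the dinucleotide CG that usually stay free of DNA methylation. In brain, long genes include many that encode adhesion molecules, ion channels and neurotransmitter receptors.

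Windows of 300 bases from 5 wide regions show the sequence that such openings cover. They were taken from the mm10 genome on the plus strand, as near to the centre of the region as an exon-free window allowed. Capitals mark matches, on either strand, to any of 18 transcription factor motifs searched. The widest promoter, intron and intergenic regions that had such a window come first. The other windows come from wide regions with the most distinct motifs.
Ecpas promoter, chr4:58911931-58912230: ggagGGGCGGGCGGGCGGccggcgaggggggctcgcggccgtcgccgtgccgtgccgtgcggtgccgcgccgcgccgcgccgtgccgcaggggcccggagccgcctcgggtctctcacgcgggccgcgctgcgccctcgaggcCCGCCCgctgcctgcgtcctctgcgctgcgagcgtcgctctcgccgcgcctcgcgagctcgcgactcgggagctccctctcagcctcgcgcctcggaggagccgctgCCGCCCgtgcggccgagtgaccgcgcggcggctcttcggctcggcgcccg
Klhl29 intron, chr12:5374431-5374730: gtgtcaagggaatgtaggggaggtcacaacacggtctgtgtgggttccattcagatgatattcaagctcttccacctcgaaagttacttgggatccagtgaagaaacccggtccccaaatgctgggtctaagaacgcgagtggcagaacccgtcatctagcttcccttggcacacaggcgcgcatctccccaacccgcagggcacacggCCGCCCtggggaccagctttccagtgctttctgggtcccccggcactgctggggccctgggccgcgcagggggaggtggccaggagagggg
Intergenic, nearest gene Ppara, chr15:85670136-85670435: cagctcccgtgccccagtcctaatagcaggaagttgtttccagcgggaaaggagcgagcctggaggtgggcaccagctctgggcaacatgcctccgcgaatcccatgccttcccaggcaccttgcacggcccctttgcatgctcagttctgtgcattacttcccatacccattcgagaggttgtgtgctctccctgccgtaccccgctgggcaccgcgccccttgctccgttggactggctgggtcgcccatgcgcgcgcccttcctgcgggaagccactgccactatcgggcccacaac
Cacna1d intron, chr14:30125305-30125604: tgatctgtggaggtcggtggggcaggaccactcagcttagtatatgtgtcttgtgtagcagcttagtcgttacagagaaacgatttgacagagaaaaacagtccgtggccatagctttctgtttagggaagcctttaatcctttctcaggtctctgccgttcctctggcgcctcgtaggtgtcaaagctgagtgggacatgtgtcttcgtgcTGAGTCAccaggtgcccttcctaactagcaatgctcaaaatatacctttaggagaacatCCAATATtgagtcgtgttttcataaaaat
Peg3 intron, chr7:6728491-6728790: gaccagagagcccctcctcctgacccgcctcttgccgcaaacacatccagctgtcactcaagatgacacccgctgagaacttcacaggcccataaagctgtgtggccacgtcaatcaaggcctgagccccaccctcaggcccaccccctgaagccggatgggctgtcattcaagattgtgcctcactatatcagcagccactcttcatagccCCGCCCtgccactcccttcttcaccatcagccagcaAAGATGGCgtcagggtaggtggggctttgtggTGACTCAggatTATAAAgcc
The Ecpas window was 82.7% GC with 61 CG dinucleotides, and its only capitals are matches to the SP/KLF motif (GGGCGG). The Klhl29 window held 14 CG dinucleotides and the Ppara window 18. No base of the Ppara window lay in a motif match. A footprint is a short stretch inside open chromatin that is protected from cutting, as a bound protein leaves it. In the Peg3 window the authors' lists placed 5 footprints in replicate 1 and 6 in replicate 2, and it held matches to SP/KLF, YY1 (AAGATGGC), AP-1 and the TATA box (TATAAA). Its region had a deposited signal of 1.96 in replicate 1 and 3.62 in replicate 2. Peg3 is an imprinted gene expressed from the paternal allele. The Cacna1d window, in a gene of an L-type calcium channel subunit, was 46.3% GC and held AP-1 and NFY matches with 4 and 2 footprints.

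Most wide regions were wide in 1 library only. In replicate 1, 1330 of 85603 peaks (1.55%) had 600 bp or more, and 1241 of them (93.3%, 91.8 to 94.6) overlapped a peak of replicate 2. Intervals here are exact 95% binomial intervals and cover counting only, since regions are not replicates. In replicate 2, 506 of 87847 peaks (0.576%) were that wide and 436 (86.2%, 82.8 to 89.1) overlapped a peak of replicate 1. The median width of all peaks was 200 bp in replicate 1 and 190 bp in replicate 2. Of the 1400 wide regions, 986 (70.4%) were wide in replicate 1 only, 225 (16.1%) in replicate 2 only and 189 (13.5%, 11.8 to 15.4) in both. Merged widths ran from 600 to 2060 bp with a median of 689 bp.

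**Figure D1:**
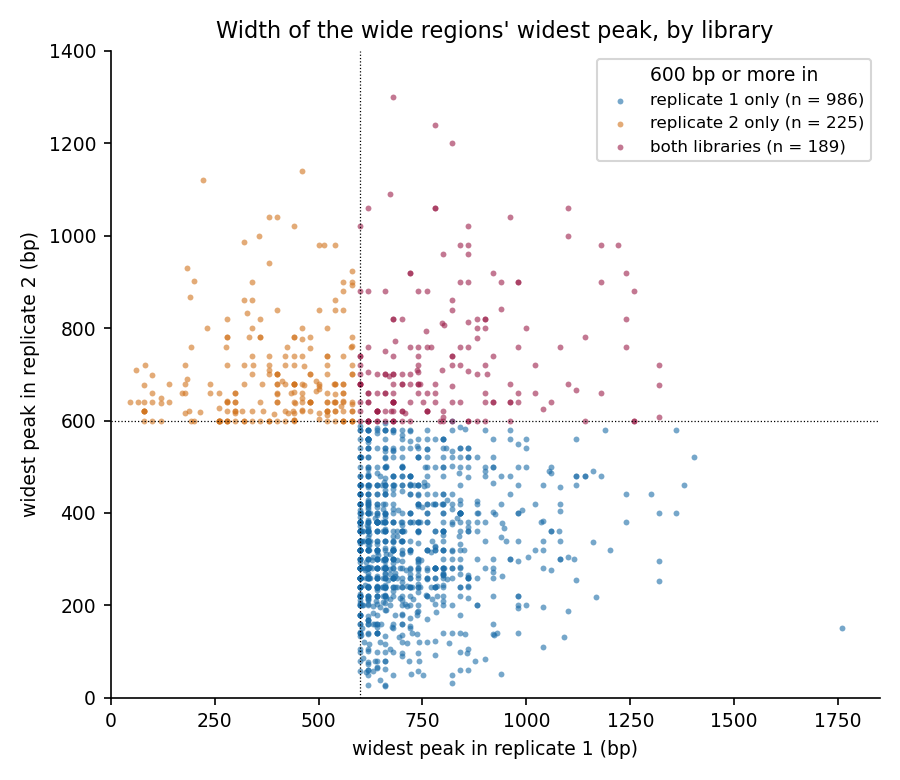
Widest peak of each wide region in replicate 1 (x axis, bp) against replicate 2 (y axis, bp); each point is 1 of the 1400 regions and dotted lines mark 600 bp. The empty lower left corner is the selection rule, and 189 points lie past both lines.

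Where a region was not wide in the other library, that library often held 2 or more narrower peaks. Several peaks were common in wide regions of any kind: only 37% of all wide regions held a single replicate 1 peak and 36.6% a single replicate 2 peak. For regions wide in replicate 1 only, the widest replicate 2 peak had a median of 320 bp, 59.3% of the regions held 2 or more replicate 2 peaks, and these covered a median of 59.4% of the region. For regions wide in replicate 2 only, the replicate 1 values were 419 bp, 55.6% and 68.5%. Bases with a deposited false discovery rate (FDR) of the cut rate of at most 0.05 still covered a median of 86.3% of the replicate 1 only regions in replicate 2. Much of the stretch was therefore listed at that FDR in the other library too, though no peak there reached 600 bp.

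The regions widest in both libraries lay at promoters. At Trib1, a pseudokinase gene, the widest peaks were 1100 bp in replicate 1 and 1060 bp in replicate 2, with signals of 2.4 and 2.42. At Nefm, the neurofilament medium chain gene, they were 1100 and 1000 bp, with signals of 1.18 and 0.839 and with 9 footprints in replicate 1 against 0 in replicate 2. Unc5c, a netrin receptor gene, had peaks of 960 and 1040 bp and signals of 1.55 and 1.18. These regions were picked for width in both libraries, and over all wide regions Spearman's rho of the widest peak between libraries was -0.193, a value that the selection rule also sets. Pcdhac2, the last variable exon of the clustered protocadherin alpha genes, had peaks of 1220 and 980 bp with 19 and 12 footprints. Mdga2, encoding a synaptic adhesion regulator, had peaks of 1240 and 920 bp with 16 and 15 footprints.

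The 10 widest merged regions were 1500 to 2060 bp long, and 8 were at promoters. Chst15, which encodes a chondroitin sulfate sulfotransferase, had the widest, at chr7:132315521-132317580. It held 6 replicate 1 peaks and 5 replicate 2 peaks, with signals of 1.08 and 0.857 and with 20 and 14 footprints. The Ecpas promoter (chr4:58911101-58912940, 1840 bp) had signals of 1.11 and 1.13. Shisa9, an auxiliary subunit gene of AMPA-type glutamate receptors, had a region of 1680 bp with signals of 0.915 and 0.976. At Smarca2, the BRM ATPase of the SWI/SNF remodelling complex, the region had 1640 bp, signals of 1.28 and 0.994, and 18 and 17 footprints. Neither library was the higher at all 4 of these promoters. Fat3, an atypical cadherin gene, had 1520 bp with signals of 1.15 and 1. Plppr5 had 1500 bp with signals of 1.03 and 0.948, and Fhod3, a formin gene, 1557 bp with 0.921 and 0.725. The pair outside promoters was an intron region of Klhl29 (chr12:5373661-5375500, 1840 bp, signals of 0.746 and 0.742) and the exon region of Pcdh10, a protocadherin gene (chr3:45379361-45381120, 1760 bp). At Pcdh10 a single replicate 1 peak spanned all 1760 bp, while the replicate 2 peaks, at most 151 bp wide, covered 15.2% of it. That region rests on replicate 1.

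At promoters, wide regions had lower signals than other shared regions, while outside promoters their signals were slightly higher. The signal of a region is the highest of its peaks, and the part of the number of peaks was not tested. Inside wide regions, 67.9% of the replicate 1 peaks and 31.3% of the replicate 2 peaks overlapped another peak of their own library, against 1.85% and 1.25% of the peaks elsewhere. In wide regions with several peaks of a library (882 and 887), the highest and lowest signals differed by a median factor of 1.19 and 1.26, respectively. This factor was not computed for other shared regions. Over all wide regions the median of the highest signal was 0.853 for replicate 1 and 0.857 for replicate 2 (mean 0.855 ± 0.00232, SD, n = 2). In other shared regions it was 0.825 and 0.908. At promoters the medians were 0.887 and 0.862 in wide regions and 1.42 and 1.48 in other shared regions. In promoters with CpG island composition, defined further down, the wide regions had 0.907 and 0.891 and the others 1.98 and 2.07. Signals, overlaps between peaks, and the footprints and FDR of the same libraries come from the reads whose peak widths chose the regions. Their values are descriptions.

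Footprints were more numerous per wide promoter region but less dense. The median wide promoter region held 6 replicate 1 footprints and 5 replicate 2 footprints, compared with 4 and 3 for other shared promoter regions. Per 100 bp this was 0.833 and 0.625, against 1.32 and 1.15. No footprint was listed in 10.9% and 11.1% of all wide regions, against 9.52% and 8.96% of other shared regions. Bases with an FDR under 0.001 made up a median of 81.8% of a wide region in replicate 1 and 47.4% in replicate 2, whereas in other shared regions the libraries were closer, with 71.1% and 64.4%. The gap was largest where only replicate 1 was wide, with medians of 81.7% and 37.8%. It was smaller but remained where both were wide, with 89.9% in replicate 1 and 70.1% in replicate 2. Where only replicate 2 was wide the libraries were close, with 72.6% and 75%.

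**Figure D2:**
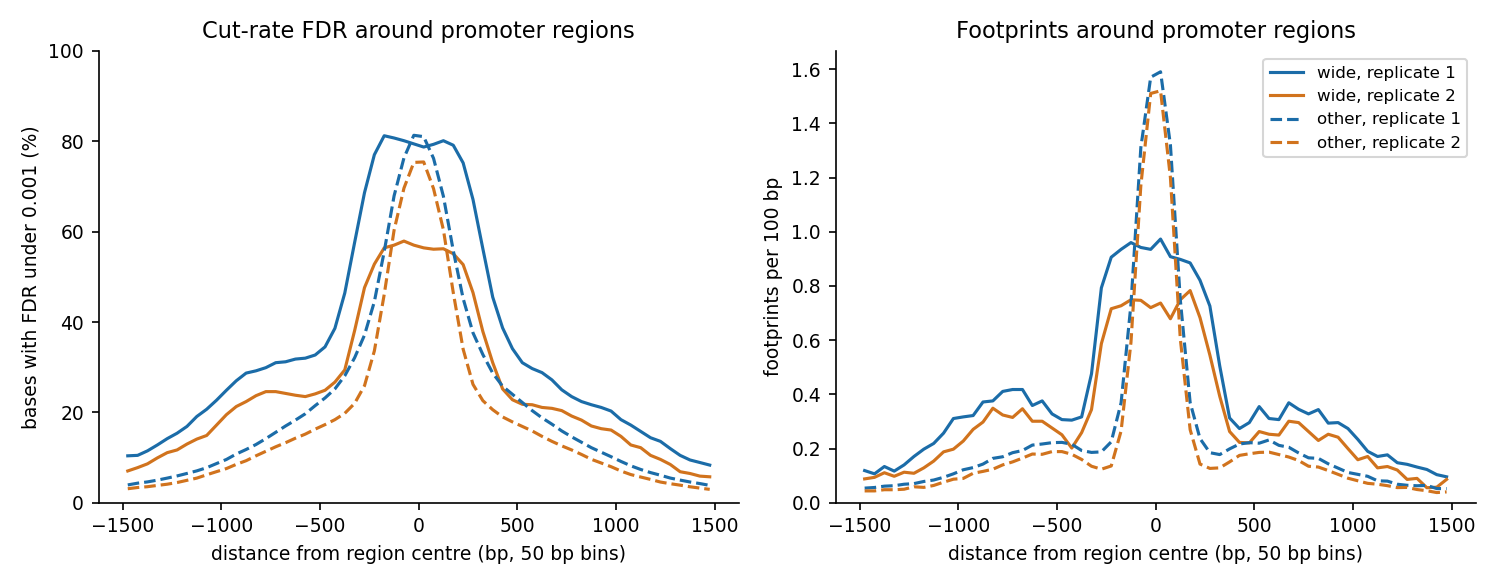
Share of bases with an FDR under 0.001 (left, %) and footprints per 100 bp (right) by distance from the region centre (x axis, bp, 50 bp bins) for wide (solid) and other shared (dashed) promoter regions in replicates 1 (blue) and 2 (orange). The wide regions form a flat top with side shoulders, while in the other promoter regions footprints concentrate at the centre, reaching 1.59 per 100 bp in replicate 1.

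Across all shared regions the promoter share rose with each width class. Promoters made up 12.3% of regions whose widest peak was under 200 bp, 32.4% from 200 to under 300 bp, 51.9% from 300 to under 400 bp, 61.1% from 400 to under 500 bp, 65.5% from 500 to under 600 bp and 74.5% at 600 bp or more. Among promoter regions the median signal rose and then fell: it was 0.605 in replicate 1 and 0.634 in replicate 2 under 200 bp, 1.95 and 2.03 from 200 to under 300 bp, and 0.898 and 0.874 at 600 bp or more. Footprints per 100 bp of promoter regions followed the same course, with 0.948 and 0.855 under 200 bp, 1.5 and 1.36 in the next class and 0.816 and 0.606 in the widest. Over all 19825 shared promoter regions, Spearman's rho of signal with width was 0.0295 in replicate 1 and 0.175 in replicate 2, both measures coming from the same peaks.

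**Figure D3:**
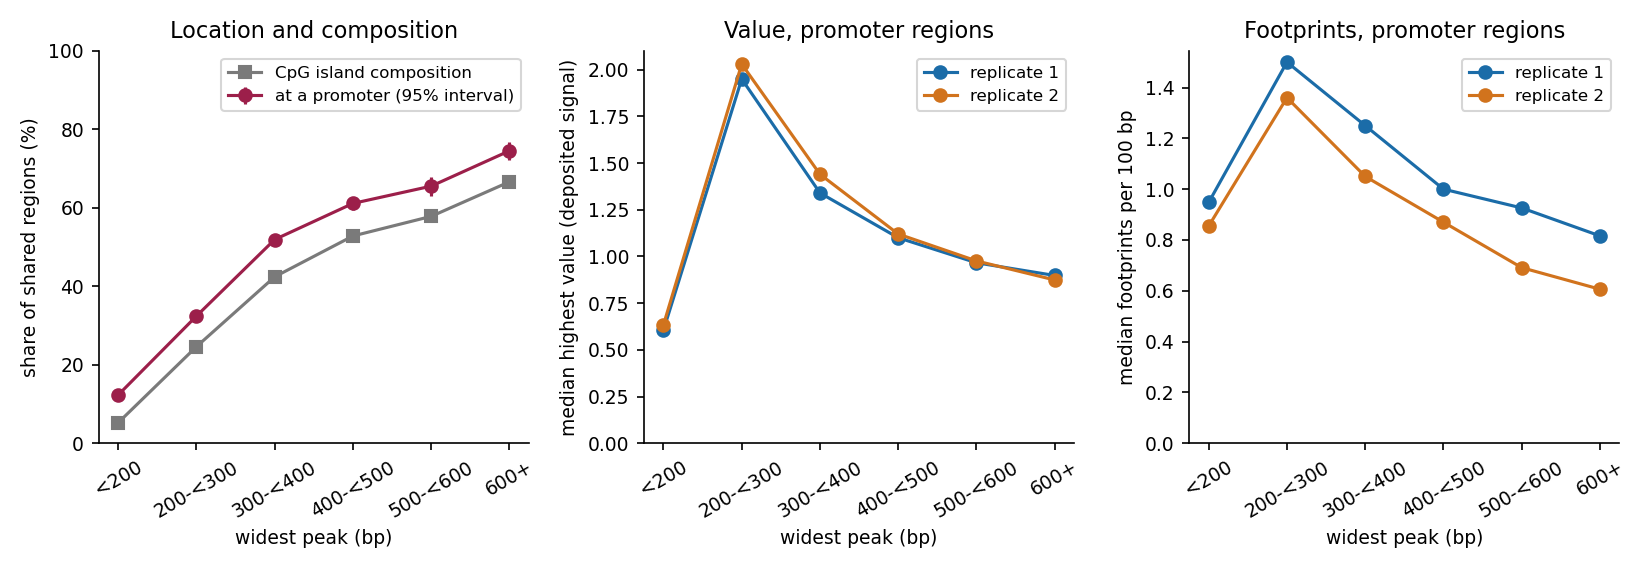
Shared regions by the width of their widest peak (x axis, bp): the share at promoters with its 95% interval and with CpG island composition (left, %), and, for promoter regions, the median signal (middle) and median footprints per 100 bp (right) in each library. Promoter share rises from 12.3% to 74.5%, while signal and footprint density are highest from 200 to under 300 bp and lower on either side.

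Signals on either side of the minimum differed little. The promoter share was lower just above the minimum than just below it, unlike the rise over the broader width classes, and this was not tested. The 185 wide regions whose widest peak had 600 to under 620 bp had median signals of 0.876 and 0.868, and 64.9% were at promoters. The 217 other shared regions from 580 to under 600 bp had 0.825 and 0.879, and 71.9% were at promoters. Many wide regions tied as the narrowest, since the 10th percentile of merged width was 600 bp. From these ties 5 were taken in order of signal: Camta1, Csnk1g2, Fbxo24, Tcf3 and Phyhipl. Camta1, Csnk1g2 and Fbxo24 also ranked among the 10 highest signals. Because signal ordered the ties, that rank says nothing of narrow members in general. Just outside lay the regions of Mcur1, Stab2 and Ankrd13c (598 bp), Vim, the vimentin gene (597 bp), and Zmat4 (596 bp), with replicate 1 signals from 0.39 to 0.74.

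A small group of wide regions had tall signals. Gsk3b, encoding glycogen synthase kinase 3 beta, had the highest, with 5.83 in replicate 1 and 8.7 in replicate 2 over 700 bp (chr16:38088741-38089440). Tomm40, a pore subunit of the mitochondrial import machinery, had 5.16 and 8.94. Khsrp, an RNA-binding splicing regulator, had 5.46 and 8.53. At these promoters replicate 2 was higher than replicate 1. Nfya, a subunit of the CCAAT-binding factor NFY, had 5.68 and 7.11, and Camta1 had 5.75 and 6.44. Csnk1g2, Fbxo24, Usp5, Slc25a42 and Abtb1 completed the 10 highest, with replicate 1 signals of 4.07 to 5.07 and replicate 2 signals of 5.29 to 6.84. All 10 were promoters of 600 to 700 bp, each with an FDR under 0.001 over 100% of its bases in both libraries, and each held 9 to 16 footprints. Of all wide regions, 0.5% differed more than 2 times in signal between the libraries, and the SD of the log2 signal ratio between libraries was 0.346.

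Position was not used by the rule, and wide regions were mostly promoters. Promoter regions are those with a centre no further than 1 kb from any annotated transcription start site (TSS) of a protein-coding gene. This held for 1042 wide regions (74.4%, 72.1 to 76.7), against 33.8% of all shared regions. Exons held 76 (5.43%), introns 127 (9.07%) and intergenic sequence 155 (11.1%, 9.48 to 12.8), against 26.7% of all shared regions in introns and 34.3% in intergenic sequence. Among the 189 regions wide in both libraries 85.7% (79.9 to 90.4) were at promoters, against 72.5% and 73.3% of those wide in replicate 1 or replicate 2 only. With 1 TSS per gene in place of all annotated TSS, the share was 57.9%.

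Wide promoter regions lay more to the transcribed side of the TSS. Their centre was downstream of the nearest TSS in 63.5% (60.5 to 66.5) and by a median of 76.5 bp, against 40.3% and a median of 17 bp upstream (offset -17) in other shared promoter regions. The central 600 bp contained an annotated TSS in 61.6% of the wide and 74% of the other promoter regions. Divergent TSS of different genes lay in that window in 3.26% (2.27 to 4.53) of the wide and 5.43% of the other promoter regions. Another wide region stood within 10 kb of 14.3% of the wide promoter regions, and a wide region stood within 10 kb of 6.23% of the other promoter regions.

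CpG island composition was common. It was called where the central 600 bp had at least 50% GC and an observed to expected CpG ratio of at least 0.6. It was met by 938 wide regions (67%, 64.5 to 69.5), against 25.9% of all shared regions. At promoters the share was 80% (77.5 to 82.4) of wide regions and 67.6% of the others. In exons it was 65.8% (54 to 76.3) of 76 wide regions, against 15.7% of other shared regions, whereas wide introns and intergenic regions met it in 19.7% and 18.7%, against 1.87% and 3.99%. The central window of a wide region had a median GC of 64.2% and 44 CG dinucleotides, with lowest and highest counts of 1 and 116.

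At promoters, motif shares were compared among those of CpG island composition only. There the SP/KLF motif, bound by the SP and KLF zinc finger activators, was found in 86.3% (83.8 to 88.6) of wide and 86.9% (86.3 to 87.5) of other promoter regions, shares whose intervals overlap. ETS (CCGGAAG) was in 11.6% (9.53 to 14) of wide and 23.3% (22.5 to 24) of other such promoters, and NFY (CCAAT) in 33% (29.8 to 36.3) and 46.3%. Motifs of further promoter-bound factors were also less frequent in the wide group. NRF1 was in 0.6% (0.195 to 1.39) against 2.57%, ZNF143 in 0.719% (0.264 to 1.56) against 4.18%, the cyclic AMP response element CRE (TGACGTCA) in 1.56% (0.833 to 2.65) against 4%, and YY1 in 4.8% (3.45 to 6.47) against 7.36%. EGR (GCGNGGGCG), the motif of the early growth response factors, went the other way, with 30.6% (27.5 to 33.8) against 22.8%. TATAAA was in 4.8% (3.45 to 6.47) and 8.13%. For AP-1 (TGAGTCA or TGACTCA), MEF2, the NEUROD E-box (CAGATGG), SOX (ACAATGG), RFX, NFI, CTCF, REST and the homeodomain core (TAATTA) the intervals overlapped. The wide and other promoters of CpG island composition were not matched further. The scanned window held an annotated TSS in 63.8% of the wide and 82.7% of the other ones, and its median GC was 68% and 64%. The part of TSS position and GC in the motif shares was not tested. SP/KLF and EGR matches can share bases. A match is a string of letters and not a measured binding site.

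**Figure D4:**
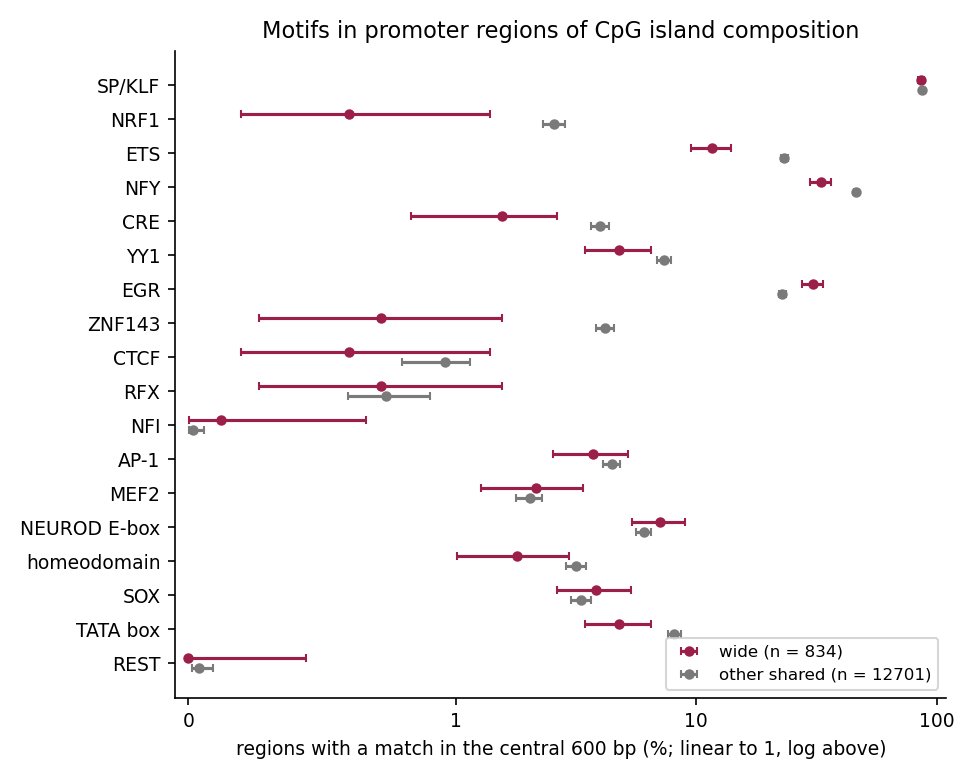
Share of promoter regions with CpG island composition that hold each motif in their central 600 bp (x axis, %, linear to 1 and log above), for 834 wide and 12701 other shared regions, with exact 95% intervals. The SP/KLF intervals overlap, ETS, NRF1, ZNF143, NFY, CRE and YY1 are less frequent and EGR is more frequent in wide regions.

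Footprints at matches were counted over all promoter regions. In wide promoter regions 11.3% (10.6 to 12.1) of 6596 replicate 1 footprints and 11.8% of 5215 replicate 2 footprints overlapped an SP/KLF match, against 15.7% and 16.9% in other shared promoter regions. ETS matches were overlapped by 0.424% and 0.652% of footprints, against 1.82% and 1.88%, and NFY matches by 1.35% and 2.15%, against 3.87% and 4.09%. EGR matches were overlapped by 2.38% (2.03 to 2.78) and 2.36% (1.96 to 2.81), against 2.07% (1.97 to 2.18) and 2.12% (2.02 to 2.24). These EGR intervals overlap. In promoters of CpG island composition the EGR shares were 2.72% and 2.67%, against 2.49% and 2.55%. The median footprint had 9 bp in wide promoter regions of both libraries, against 10 bp (replicate 1) and 11 bp (replicate 2) in the others. The part of footprint width in all these overlaps was not tested. For CTCF, NFI and REST, shares of regions with a match in the central 600 bp were also read without a limit on composition. CTCF, the insulator protein, had a match in 0.838% (0.173 to 2.43) of the 358 wide regions outside promoters and 11.1% of the other shared regions there. Median GC of these 2 sets was 55.7% and 48.2%, and its part was not tested. NFI and REST were each found in 1 of the 1400 wide regions (0.0714%), against 0.101% and 0.0471% of other shared regions.

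Long genes had wide promoter regions more often than short genes. Of 21938 protein-coding genes, 1110 (5.06%) had a wide region that overlapped the 1 kb before or after a TSS, and they were 8.23% of the 13489 genes whose promoter held a peak in each library. Counting regions in the gene body too, 1256 genes (5.73%) had one. The annotated length of the genes with a wide promoter region had a median of 66.7 kb, against 24.9 kb for the other genes with a promoter peak. Genes over 100 kb made up 39.4% (36.5 to 42.3) of the former and 14% (13.4 to 14.6) of the latter. By length, 5.92% of genes under 10 kb had a wide promoter region, 4.4% of those of 10 to 30 kb, 7.6% of those of 30 to 100 kb, 16.6% (14.8 to 18.5) of those of 100 to 300 kb and 31.5% (27.5 to 35.7) of those of 300 kb or more. Long genes have more annotated TSS windows in which a region can fall, and their part in the result was not tested.

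In several receptor, adhesion and guidance families the share of genes with a wide promoter region was above that background. These gene families were grouped by name after the values had been seen, so their counts are descriptions, read beside the background of 8.23% of genes with an open promoter. Among such genes of any family, the share was 16.6% at 100 to 300 kb and 31.5% at 300 kb or more. Gene lengths of the families were not compared, so the part of length in their shares was not tested. Of 22 glutamate receptor subunit genes with an open promoter, meaning a peak there in each library, 7 had a wide promoter region. They included Grid1 (1120 bp, signals of 0.701 and 0.605), the kainate receptor gene Grik2 (1040 bp, 0.898 and 0.805), the NMDA receptor gene Grin2a (980 bp, 0.814 and 0.857) and the metabotropic receptor gene Grm7 (980 bp, 0.853 and 0.914). The counts that follow are also of genes with an open promoter. Of 11 GABA-A receptor subunit genes 4 had one, with Gabra2 (signals of 1.5 and 1.3) and Gabra4 (0.723 and 1.09) at 680 bp each. Protocadherins outside the clusters, teneurins and Fat cadherins, which act in neuronal adhesion, had one in 8 of 18 genes, with Tenm3 at 1360 bp and Pcdh7 at 1320 bp beside Fat3 and Pcdh10, whose region overlaps its promoter with a centre in an exon. Axon guidance genes had one in 16 of 61, with Nrp1 (1360 bp), Sema6d (1195 bp), Slit2 (1160 bp) and Unc5c (1040 bp) the widest. Potassium channel subunits had one in 10 of 67, led by Kcnn2 at 1040 bp. These widths are of merged regions. Of the genes named here, Grm7, Gabra2, Pcdh7, Fat3 and Unc5c were wide in both libraries, and the others in 1 only. The widest replicate 1 peak at Grid1 was 221 bp. In replicate 2 the widest peak was 280 bp at Gabra4 and Kcnn2, 337 bp at Slit2 and 382 bp at Grik2. It was 400 bp at Grin2a and Tenm3, 440 bp at Nrp1 and 490 bp at Sema6d.

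Ribosomal protein genes were at the other end. Of 75 cytosolic ribosomal protein genes with an open promoter only Rps19 had a wide region (680 bp in both libraries, signals of 3.6 and 4.08). Of 78 mitochondrial ribosomal protein genes only Mrpl48 had one (620 bp, 1.2 and 1.11). Zinc finger genes named Zfp had one in 18 of 336 (5.36%). Sox factors had one in 2 of 13 (15.4%) and Forkhead factors in 3 of 25 (12%). The Sox and Forkhead shares were above the background of 8.23%, but these lists are short and the difference was not tested.

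**Figure D5:**
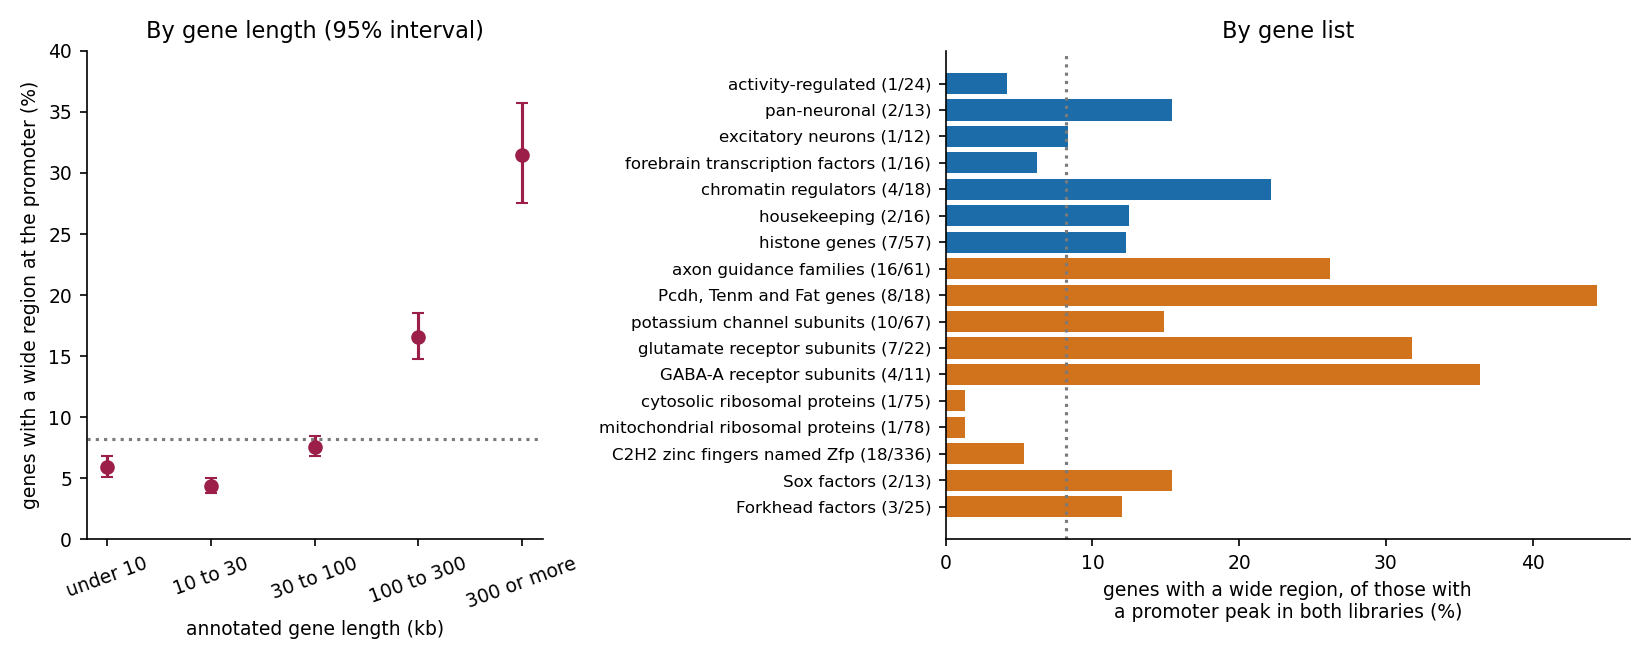
Left, share of protein-coding genes with an open promoter that had a wide region there, by annotated gene length (x axis, kb), with exact 95% intervals; right, the same share (x axis, %) by gene list with at least 10 such genes, with counts in parentheses. Dotted lines mark 8.23%; orange bars are families grouped after the values were seen, and the share reaches 31.5% in genes of 300 kb or more.

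Listed markers of cortical cell types differed in how many had an open promoter. All 13 pan-neuronal and all 12 excitatory neuron genes listed had an open promoter, as had 8 of 13 inhibitory neuron, 7 of 10 astrocyte, 6 of 13 oligodendrocyte or precursor, 3 of 10 microglial and 3 of 8 endothelial or mural genes, against 1 of 8 liver genes, Apob. Over all protein-coding genes, 13489 of 21938 had an open promoter. The marker lists are short, and their differences from that share were not tested. With so few open promoters in a list, the counts of wide ones cannot be set apart from the 8.23% of all such genes. Wide regions stood at the promoters of Nefm (1220 bp) and Nefl (680 bp, signals of 0.989 and 0.891), the neurofilament genes, and within Stmn2 (780 bp). Among excitatory neuron genes Bhlhe22 had one at its promoter (649 bp, 0.622 and 0.805) and Gria2, an AMPA receptor gene, one in the gene (620 bp). Inhibitory neuron genes had one at Erbb4 (741 bp, 0.469 and 0.52) and at Gad2, the glutamate decarboxylase gene (620 bp, 0.667 and 0.537). In both of these regions the widest replicate 2 peak was under 100 bp, at 80 and 28 bp. Of the 7 open astrocyte genes Sox9 had one (660 bp), and of the 6 open oligodendrocyte genes Cnp (640 bp, 1.14 and 0.811). None of the 3 microglial and 3 endothelial or mural genes with an open promoter had one. In bulk tissue, fewer nuclei with an open region and a less open region in each nucleus cannot be told apart.

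Regulator lists were too short to be placed above or below the 8.23% background. The exact interval was 0.105 to 21.1% for the activity-regulated list and 6.41 to 47.6% for the chromatin regulators, and both contain 8.23%. Of 24 activity-regulated genes, all with an open promoter, only Nr4a2, a nuclear receptor gene, had a wide region (4.17% of the list; 840 bp, signals of 1.03 and 1.62), and its replicate 2 peak was 220 bp wide. Of 16 forebrain transcription factor genes with an open promoter, Mef2c had one at its promoter (740 bp, 1.19 and 1.23), while Otx1 (800 bp) and Bcl11a (614 bp) had one in the gene. Chromatin regulators had 4 of 18 (22.2%), which were Smarca2, the histone acetyltransferase genes Crebbp (660 bp) and Ep300 (640 bp, 1.43 and 1.48), and Ezh2, the Polycomb methyltransferase gene (620 bp, no footprint in either library). Dnmt3a, a DNA methyltransferase gene, had one in an intron (604 bp). Housekeeping genes had 2 of 16, at Actb (737 bp) and Hsp90ab1 (620 bp, 1.37 and 1.76). Histone genes had 7 of 57, but these shared 4 regions, of which the widest was at Hist3h2a (900 bp, 1.88 and 2.66). Xist, the RNA gene of X inactivation, had one near its start (807 bp, 0.723 and 0.954) and Miat one in the gene (1040 bp). The clustered protocadherins had 1 of 7, at Pcdhac2, and the single open Hox gene, Hoxa7, had none.

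Some genes held several wide regions. Pcdh7 had 3 in a row at its promoter, of 760, 900 and 1320 bp, within chr5:57717221-57720320. Adgrl3, the latrophilin 3 adhesion receptor gene, had 3 at its promoter, of 840, 740 and 1040 bp. Maml3, a Notch coactivator gene, had 3 side by side with centres 1145 to 2705 bp from the nearest TSS, of 1020, 640 and 620 bp. Openness between the regions of a run was not measured. Fgfr2 had 5, but its annotated span of 2960900 bp takes in regions far from its main promoter, and the 4 of Gm20388, with 4434882 bp, are likewise spread over a long span. Ppp2r3d had 4, with replicate 1 signals from 0.412 to 4.34. Tchh, the hair follicle protein trichohyalin gene of 6748 bp, had 4 exon regions of 620 to 660 bp. In all, 109 genes had 2 wide regions and 13 had 3 or more; Dclk1, Arhgap26 and Cdk6 had 3 each.

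Outside promoters, 358 wide regions remained, and 135 of them (37.7%) were within 5 kb of a protein-coding TSS, 116 between 5 and 50 kb and 107 (29.9%) beyond 50 kb. Their median signals were 0.74 (replicate 1) and 0.828 (replicate 2), compared with 0.695 and 0.799 for other shared regions outside promoters. The libraries differed by more than these sets did. The widest intergenic region (1189 bp) lay 64697 bp from the nearest TSS, that of Ppara, with signals of 1.36 and 1.91. The next, nearest to Asmt on the X chromosome (1040 bp) and to Mro (1000 bp), had low signals, with 0.186 and 0.188 at Asmt and 0.17 and 0.206 at Mro. Those nearest to Fstl4 (994 bp) and Lep (980 bp) had replicate 1 signals of 0.701 and 0.78. In introns, after Klhl29, came Dclk1, a microtubule-associated kinase gene (1180 bp, 0.333 and 0.24, no footprint in either library), and regions nearest to the TSS of 5330417H12Rik (1160 bp), Lyzl4 (1079 bp) and Dupd1 (1054 bp).

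Few wide regions had a near-identical copy of their whole length, and shorter repeats inside regions were not counted by this search. In 4 of the 1400 (0.286%, 0.0779 to 0.73) the whole region had a near-identical copy elsewhere on the 21 chromosomes, at 95% identity or more over at least 80% of its length. These were the regions nearest to Akap1 (13 copies), 9030624G23Rik (4), Zfp944 (1) and Zfp971 (15), and their signals are uncertain because reads could be shared between copies. Wide regions lay on 20 chromosomes, with 48 on the X chromosome (3.43%, against 2.37% of shared regions). None lay on the Y chromosome, where 0.0324% of shared regions were listed. The mice were females, so this absence says nothing particular of wide regions.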

How the data were processed

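DNase-seq peaks, footprints and cut-rate tables of 2 libraries were used as the authors deposited them, on mm10, made per library per the deposited text files. Column 7 of the peak lists is the authors' signal, normalized for read depth in an unstated unit. The deposited per-position FDR is a q-value of the cut rate, listed up to 0.05. The footprint lists carry 1 constant, 0.01, as deposited. The sources used here do not name the aligner, the callers or the depth, so the precision that depth gives is unknown.

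Of 2 peak lists per library the longer was used. Members and lists were chosen with earlier results of these data known. Half-open intervals were merged where they overlapped by 1 bp or more. The value of a region is the highest signal of a peak in it. TSS, exons and genes came from GENCODE vM21, leaving out the mitochondrial genome. Composition and the 18 motifs were read from the central 600 bp. Copies were searched with BLAST 2.17.0. Shares have exact Clopper-Pearson 95% intervals from scipy 1.17.1. With 1 group and 2 libraries no test was run. Interval and motif functions were tested on simulated data. The regions named are the 10 widest, the 10 highest in mean signal, those nearest the width minimum, the 5 widest intergenic and intronic, genes with several, and up to 4 genes per list of 16. The regions widest in both libraries and 10 gene families were added after seeing the values. The printed windows were moved off the region centre where an exon lay there, and the widest promoter with an exon-free window replaced Chst15. Some items that these rules select are not reported here. The alternatives were other width minima, overlap rules, peak lists, promoter definitions, composition thresholds and windows, 1 library alone, copies left out and, chosen after seeing the data, 2 ways of merging.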

Additional observations from a re-analysis of the deposited data

How the results depend on the processing

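Of 83 values recomputed for 9 results, 53 stayed within the interval, the SD between libraries or 1.5 times of the reported value. A width minimum of 500 bp gave 2938 regions, 17.2% wide in both libraries, 69.7% at promoters, 62.4% with CpG island composition, 68.2% with SP/KLF and a median signal of 0.878. One of 800 bp gave 373 regions, with 8.58%, 79.4%, 74.3%, 74% and 0.843 in that order, and 0% with a near-identical copy. The shorter, stricter peak list gave 539 regions, 82.2% at promoters, 77.6% with CpG island composition, 80.5% with SP/KLF, a median signal of 1.12, 0.972 footprints per 100 bp and 96.2% of bases with an FDR under 0.001. Leaving out 1 library gave 484 regions (without replicate 1) and 1260 (without replicate 2), 70.7% to 72.3% at promoters, 63.7% to 66.5% with CpG island composition and median signals of 0.805 to 0.836; being wide in both could not be computed. Promoter windows of 500 bp gave 57.7% and 1 TSS per gene 57.9%. GC of 55% with a ratio of 0.65 gave 60.9% with CpG island composition, and a window of 200 bp gave 41.4% with SP/KLF. Merging overlapping peaks of a library before the width rule, chosen after seeing the data, gave a median signal of 0.858; being wide in both was not computed. The cause of these shifts was not tested. The direction against other shared regions was not recomputed under each alternative. No paired analysis was possible because there was 1 group. Depth is unknown, so which library is deeper, and its part in the excess of wide peaks in replicate 1, was not tested.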
